A study of Phalaenopsis x intermedia with 4 samples.

Results

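The single nucleotide polymorphisms (SNPs) described here lie on chromosome 1 of the genotype table made by genotyping-by-sequencing (GBS) of F1 progeny of *Phalaenopsis aphrodite* (Pa) and *P. equestris* (Pe). They were chosen by a fixed rule: chromosome label 1, exactly 2 base alleles, and a missing call (N) in more than 20% of the 92 plant columns. The rule gave 23026 SNPs, of 115866 entries in the whole table and of 105873 SNPs that pass the same rule on chromosomes 1 to 19. A further 1095 SNPs of chromosome 1 had 2 base alleles but N in at most 20% of columns, and are set beside the others where they differ. No measured genotype ratio or linkage value entered the rule.

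The plants were leaf-sampled F1 hybrids called *P.* Intermedia, described as from 1 cross between Pa and Pe. By this description all progeny are full siblings, and no treatment or control group exists. Their DNA was cut with Hinp1I or ApeK1, each paired with HaeIII, and sequenced as 4 libraries on 2 plates for each enzyme pair. The Hinp1I libraries were run on MiSeq and the ApeK1 libraries on HiSeq, so enzyme and sequencer cannot be told apart. The paper counts far more SNPs from ApeK1 than from Hinp1I. The table merges these libraries into 90 progeny columns and 1 column for each parent. Of the progeny, the 60 with N at no more than 50% of entries were used. They lacked 4.20% of calls at the chromosome 1 SNPs, with a median of 58 called plants per SNP. The other 30 progeny lacked 98.6% of them and were left out. Calls include genotypes that the authors imputed by nearest neighbours, and the part of imputation in any result was not tested. The table gives neither read counts nor the library of a call, so depth is unknown and no value could be split by enzyme or plate. The plants PaPe52, PaPe63, PaPe76 and PaPe89 lay apart from the rest in a multidimensional scaling of the genotypes, and the values without them are given where a result moved most. Whether these plants share the parents of the others was not tested.

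GBS reads only the ends of restriction fragments, so SNPs come in small clusters along a chromosome. In a cross between outbred parents, a locus that is heterozygous in 1 parent is passed on to about equal numbers of progeny in either form, and the maternal and the paternal chromosomes segregate independently of each other. Loci close together on 1 parental chromosome are inherited together until a crossover separates them, which is seen as linkage disequilibrium (LD), measured here as r2, the squared correlation of genotype dosage over plants. Loci on different chromosomes are expected to be unlinked in full siblings.

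The chromosome 1 SNPs ended abruptly. They ran from position 86733 to position 257308592 of the table's coordinates (build: not given in the sources used here), but 22904 of them (99.5%) lay at or before position 111152489. There a gap of 816656 bases followed, whereas the longest gap before it was 228726 bases. Past it only 122 SNPs remained. In 5 Mb windows, windows 1 to 22 held 745 to 1483 SNPs each, with a median of 996.5. Window 23 (110 to 115 Mb) held 189. The 29 windows beyond it held 118 SNPs in all, at most 14 in any of them, and 9 held none. The fullest windows were window 21 (100 to 105 Mb) with 1483 SNPs, window 4 (15 to 20 Mb) with 1339 and window 15 (70 to 75 Mb) with 1246. The emptiest up to the edge were window 23, window 1 (0 to 5 Mb) with 745 and window 5 (20 to 25 Mb) with 853.

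SNPs with few missing calls did not follow this edge. Of the 1095 SNPs with N in at most 20% of columns, 468 (42.7%) lay at or before position 111152489 and 627 (57.3%) past it. They numbered 3 to 62 per window in windows 1 to 22, with a median of 16, and 1 to 89 in windows 24 to 52, with a median of 14. Both kinds of SNP carry the same chromosome label and both occur up to the edge, but only those with few missing calls continue at a like number past it. Whether both kinds use the same reference coordinates was not tested.

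**Figure D1:**
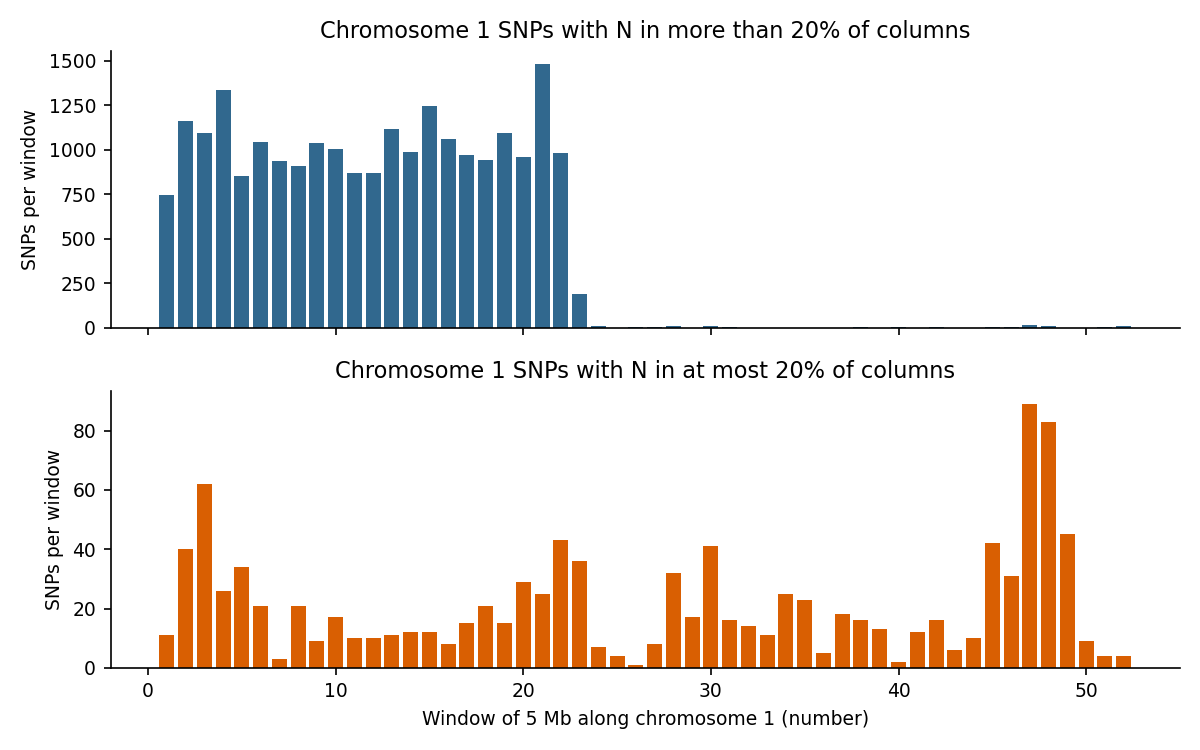
Number of SNPs in each of 52 windows of 5 Mb along chromosome 1, with N in more than 20% of plant columns above and in at most 20% below. The upper bars stand between 745 and 1483 in windows 1 to 22 and fall to 14 or fewer past window 23, whereas the lower bars reach 89 past it.

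Up to the edge the density was 206 SNPs per Mb. The SNPs were clustered: the median distance between neighbours was 33 bases, and 65.3% of neighbours were under 100 bases apart. They fell into 6774 bins of 1 kb, with 3.40 SNPs per bin that held any. On chromosomes 2 to 19, 157 of 184 windows held at least 100 SNPs, and these held 115 to 1319 SNPs with a median of 387. On chromosome 1 the 23 windows with at least 100 SNPs had a median of 988. In 1 kb bins the medians were 298.5 for windows 1 to 22 of chromosome 1 and 116 for those 157 windows, so the higher number on chromosome 1 was also seen when each cluster of SNPs was counted once.

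Heterozygous calls were more frequent on chromosome 1 than on the other chromosomes. In the 60 progeny they made up between 13.5% and 34.6% of calls on chromosome 1, with a median of 28.9%. On chromosomes 2 to 19 the same plants ranged from 14.6% to 31.8%, with a median of 26.5%. The 2 ranges overlapped widely, but within a plant the difference was narrow. It averaged 2.26 percentage points ± 0.79 (SD, n = 60) and was above 0 in 58 of 60 plants (two-sided permutation test flipping the sign of each plant's difference, p = 1e-05, the smallest it can give). All plants were compared at the same SNPs, so this p measures the spread between plants and not that between chromosomes or SNPs. Both exceptions, PaPe63 at -1.11 and PaPe89 at -1.22 points, were also the plants with the fewest heterozygous calls on chromosome 1, 13.5% and 13.8%. Across plants the level on chromosome 1 followed that on chromosomes 2 to 19, with Pearson's r of 0.99 and Spearman's rho of 0.98 (permutation p = 1e-05 for each), and r of 0.99 without the 2 plants farthest from the median. The level also ran with the missing calls of a plant. The 45 plants with under 5% missing had 26.6% to 34.6% heterozygous calls on chromosome 1, and the 15 others 13.5% to 28.1%. The correlation with percent missing was r = -0.81 and rho = -0.90 (permutation p = 1e-05 for each), and r = -0.90 without the 2 farthest plants. These 2 relations have the same p after Benjamini-Hochberg adjustment. PaPe63 and PaPe89 lacked 22.6% and 21.8% of calls. The part of missing calls in the levels was not tested. Taken over all calls, chromosome 1 stood at 28.4%, and each of the other 18 chromosomes was lower, from 23.5% to 28.1%. Among the SNPs with N in at most 20% of columns the difference had the opposite sign, -2.24 percentage points (p = 1e-05 in the same permutation test).

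The genotypes of the parents differed in the same comparison. Both parents were heterozygous at 15.7% of the chromosome 1 SNPs and at 12.7% of those on chromosomes 2 to 19, and progeny calls at such SNPs were heterozygous in 64.7% and 65.2% of cases. Pa and Pe were opposite homozygotes at 13.8% of the chromosome 1 SNPs and at 19.7% of the others, with 12% and 10.8% of progeny calls heterozygous. The largest class, with both parents called as the same homozygote, made up 46.0% and 40.3% and had 16.6% and 15.8% heterozygous calls. Within the SNPs heterozygous only in Pe the values were 38.3% and 36.8%, and within those heterozygous only in Pa 35.2% and 34.0%. The part of these classes in the difference between chromosomes was not tested.

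Heterozygosity was also followed along chromosome 1. Over windows 1 to 23 it ran from 25.7% to 30.5% with a median of 28.5%. The highest values were in window 20 (95 to 100 Mb) with 30.5% ± 5.69 (SD between plants, n = 60), window 3 (10 to 15 Mb) with 30.1% ± 5.35 and window 10 (45 to 50 Mb) with 30.1% ± 4.16. The lowest were in window 12 (55 to 60 Mb) with 25.7% ± 3.61, window 9 (40 to 45 Mb) with 26.3% ± 3.99 and window 16 (75 to 80 Mb) with 26.7% ± 4.49. How windows differ within a plant was not tested. Past the edge, 19.8% of 3385 calls were heterozygous.

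**Figure D2:**
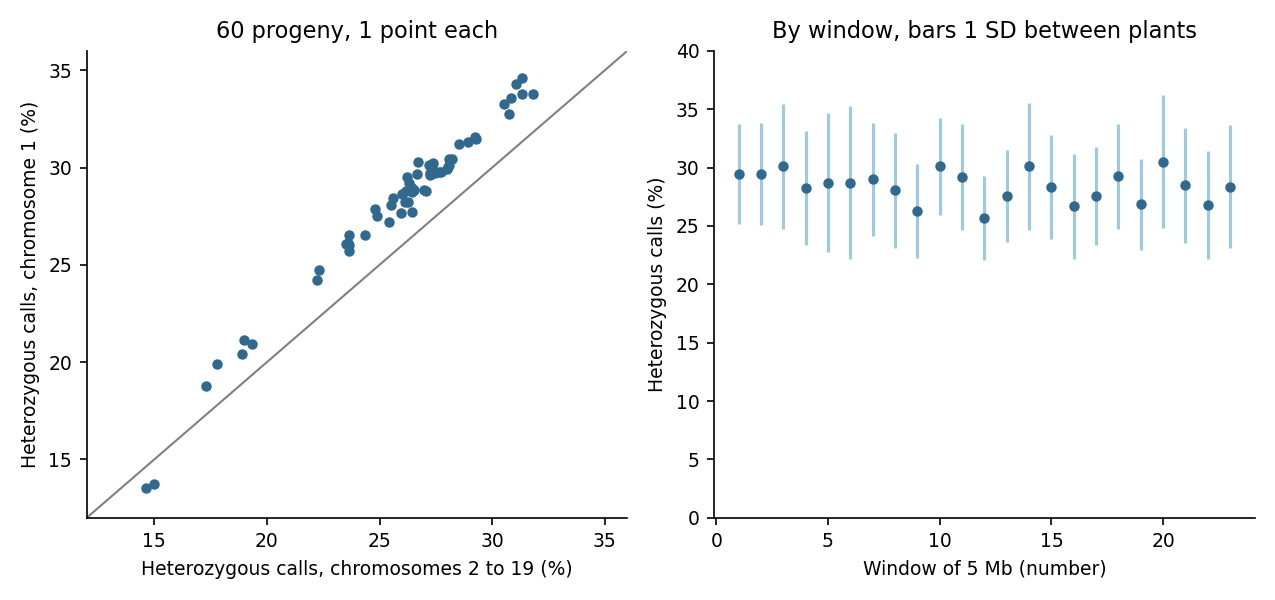
Percent of heterozygous calls in each of 60 progeny on chromosome 1 against chromosomes 2 to 19 (left, with the line of equal values), and the percent over all calls in windows 1 to 23 of chromosome 1 with bars of 1 SD between plants (right). Of the 60 points, 58 lie above the line, and the window values stay between 25.7% and 30.5%.

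The 2 most frequent genotype classes of each SNP were compared with 1:1, the ratio that a cross gives where 1 parent is heterozygous. The test was made whatever the calls of the parents. Of the chromosome 1 SNPs, 22940 had at least 20 called progeny and were tested, and 86 had fewer and were not. In 9290 of them (40.5%) the ratio departed from 1:1 (exact two-sided binomial test, Benjamini-Hochberg adjusted p under 0.05 over all SNPs of the rule). The share called over chromosomes 1 to 19 was 41.0%, and over chromosomes 2 to 19 it was 41.2%, so the share on chromosome 1 was close to that elsewhere. The 1:1 ratio applies only where exactly 1 parent is heterozygous, as called in Pe at 2700 of the tested SNPs, of which 41.3% departed, and in Pa at 1835, of which 39.5% departed. The share was 58.8% where both parents were heterozygous, 36.1% where they were the same homozygote and 33.8% where they were opposite homozygotes. Of the departing SNPs, 6583 had a homozygote as the most frequent class and 2707 the heterozygote. At 1056 SNPs (4.60%) at least 90% of calls were heterozygous, and both parents were heterozygous at 1016 of these. Over chromosomes 1 to 19 such SNPs made up 4.02%.

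The share of departing SNPs was uneven along the chromosome. It was highest in window 7 (30 to 35 Mb), where 479 of 936 SNPs (51.2%) departed, window 8 (35 to 40 Mb) with 459 of 911 (50.4%) and window 11 (50 to 55 Mb) with 427 of 865 (49.4%). It was lowest in window 22 (105 to 110 Mb) with 344 of 981 (35.1%), window 9 (40 to 45 Mb) with 368 of 1036 (35.5%) and window 15 (70 to 75 Mb) with 450 of 1246 (36.1%). SNPs of a window share the same 60 plants and are linked, so these shares are not independent counts, and no test was made between windows.

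The class pairs were often not those that the calls of the parents allow. At 9945 of the tested SNPs (43.4%) the commonest pair of classes was that of the 2 homozygotes, which a locus with 1 heterozygous parent cannot give, and 1919 SNPs (8.37%) had no heterozygous call. Over chromosomes 1 to 19 these shares were 45.4% and 9.31%, somewhat above those of chromosome 1. Where both parents were called as the same homozygote, 55.9% of progeny calls were that homozygote. Where they were opposite homozygotes, which allows only heterozygous progeny, 12% of calls were heterozygous. With Pe alone heterozygous 79.5% of calls were allowed, and with Pa alone 82.2%. In all, 8029 SNPs (34.9%) had 2 balanced classes, meaning at least 40 called plants, at most 5% of calls in the third class and at least 30% in the rarer of the others. Of these 4510 (56.2%) had opposite homozygotes as their classes, and 4587 (57.1%) had parents called as the same homozygote.

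LD fell over a few Mb. With 1 SNP per 5 kb (5320 SNPs), the mean was 0.186 where SNPs lay within 5 kb of each other and 0.158 between 0.1 and 0.5 Mb. It was 0.129 between 0.5 and 1 Mb, 0.0959 between 1 and 2 Mb and 0.0518 between 2 and 5 Mb. Past 10 Mb it lay between 0.0303 and 0.0314, slightly above the mean of 0.0286 for pairs with SNPs of chromosomes 2 to 19. The medians were far lower than the means at every distance. Up to 5 kb the median was 0.0474, with 14.9% of pairs at an r2 of at least 0.5 and 50.4% under 0.05. High values were thus a minority even among close pairs. At 50 to 120 Mb, 0.50% of pairs still had an r2 of at least 0.5, beside 0.438% of pairs with other chromosomes. Without the 4 plants that lay apart, the mean was 0.0213 for windows that are not neighbours, against 0.0309 with them, and 0.0204 for pairs with other chromosomes.

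**Figure D3:**
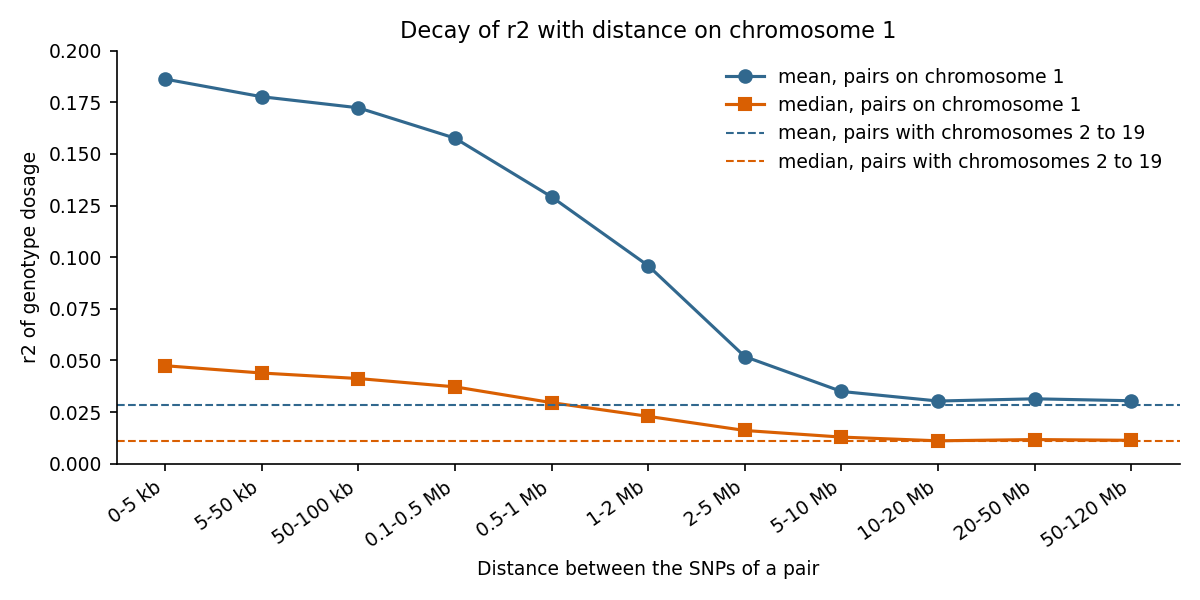
Mean and median r2 of genotype dosage for pairs of chromosome 1 SNPs in 11 classes of distance, with dashed lines at the values for pairs with chromosomes 2 to 19. The mean falls from 0.186 to 0.0303 and stays just above its dashed line of 0.0286.

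Within 5 Mb windows mean r2 was 0.102, against 0.0474 for neighbouring windows and 0.0309 for windows farther apart. It was highest in window 5 (20 to 25 Mb) with 0.186, window 22 (105 to 110 Mb) with 0.161 and window 6 (25 to 30 Mb) with 0.160. It was lowest in window 10 (45 to 50 Mb) with 0.0647, window 3 (10 to 15 Mb) with 0.0670 and window 12 (55 to 60 Mb) with 0.0697. Among the 231 pairs of windows that were not neighbours, means ran from 0.0219 to 0.0476. The highest were windows 2 and 19 (5 to 10 and 90 to 95 Mb) with 0.0476, windows 9 and 19 (40 to 45 and 90 to 95 Mb) with 0.0470, and windows 10 and 14 (45 to 50 and 65 to 70 Mb) with 0.0449. Each of these lies within the range of neighbouring windows, 0.0322 to 0.112.

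To find LD blocks, the first principal components of neighbouring windows were correlated over the 60 plants. Of 22 pairs, 9 (40.9%) were joined at an adjusted p under 0.05 (permutation test over plants, Benjamini-Hochberg over the pairs), which left 14 blocks of 1 to 3 windows. The strongest joins were windows 22 and 23 (r = 0.83, r = 0.82 without the 2 plants farthest from the median), windows 10 and 11 (r = 0.72 and 0.73) and windows 5 and 6 (r = 0.65 and 0.65). The longest blocks ran from 5 to 20 Mb and from 90 to 105 Mb, and 7 blocks were single windows. By Spearman's rho 11 pairs were joined, and the blocks differ accordingly. Windows 6 and 7 (rho = 0.52, adjusted permutation p = 0.00011, against r = 0.045), windows 4 and 5 (rho = 0.34, adjusted p = 0.018) and windows 16 and 17 (rho = 0.32, adjusted p = 0.025) were then joined as well. The weakest join, windows 3 and 4 (r = 0.33, adjusted p = 0.028), was lost (rho = 0.22, adjusted p = 0.14). Without the 4 plants that lay apart, 10 pairs were joined by Pearson's r. The first component held only 14.2% to 39.8% of the variance of a window.

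A finer map was therefore made from the SNPs with 2 balanced classes, in segments of 1 Mb. In each segment SNPs were grouped at a mean r2 of at least 0.5, and each group of at least 5 SNPs gave a segregation pattern, that is, a list of which plants were in the one state and which in the other. Chromosome 1 gave 259 patterns in 111 segments, which held 6490 of the 8029 SNPs (80.8%). There were 56 segments with 2 patterns, 19 with 1 and 36 with 3 or more. The 2 largest patterns of a segment were mostly unrelated, with a median r2 of 0.0143 over 92 segments. The rarer state was held by 28.6% to 50% of plants, with a median of 44.6%, and a pattern gave a state to 49 plants or more.

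From 1 segment to the next most patterns continued, and some broke off. Of 110 steps between neighbouring segments, 100 (90.9%) were joined at an adjusted p under 0.05 (permutation test over plants of the highest r2 between their patterns). The joined steps had a median r2 of 0.93, and 98 of them had an r2 of at least 0.5. Of the 100 joined steps, 85 reached 0.8 or more and 15 lay lower. At the other 10 steps the best pair reached only 0.00372 to 0.0748. No step lay between 0.18 and 0.48. The breaks stood at 13, 14, 16, 33, 53, 57, 83, 86, 93 and 96 Mb, which cut the chromosome into 11 runs. The longest were 57 to 83 Mb (26 Mb), 33 to 53 Mb (20 Mb) and 16 to 33 Mb (17 Mb), and the segment from 13 to 14 Mb was joined to neither side. Without the 4 plants that lay apart, 8 of the 10 breaks remained and no other appeared. The steps at 16 Mb (r2 = 0.84) and 57 Mb (r2 = 1) were then joined. All 13 borders at which 5 Mb windows were not joined had a joined 1 Mb step at the same place. On chromosomes 2 to 19, 35 of 552 steps (6.34%) had an r2 under 0.25, beside 11 of 110 (10%, Wilson interval of 95% from 5.68% to 17.0%) on chromosome 1.

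**Figure D4:**
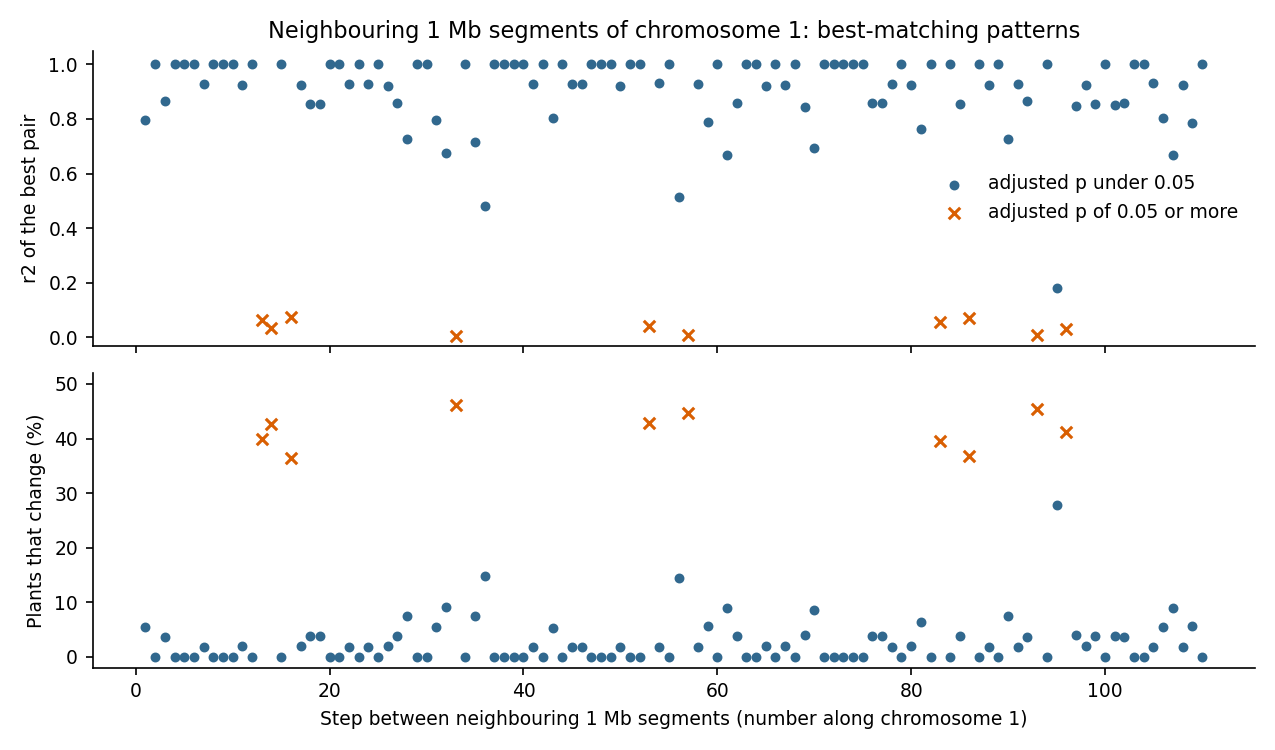
The r2 of the best-matching patterns (above) and the percent of plants whose state changes between them (below) at 110 steps between neighbouring 1 Mb segments of chromosome 1. Crosses mark the 10 steps with an adjusted p of 0.05 or more, whose r2 is at most 0.0748, and dots the 100 joined steps, whose median r2 is 0.93.

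Changes of state along the runs were few. A change of state in a plant between the matched patterns of a joined step is the form in which a crossover would appear. At 48 of the 100 joined steps no plant changed. In all there were 132 changes in 5317 comparisons of a plant at a step, or 2.48% per Mb. The best pair of patterns was chosen at each step, which by itself lowers this value. Whether the value is too low or too high on balance was not tested. Where a second pair also had an r2 of at least 0.5, at 59 steps, it gave 139 changes in 3139 comparisons (4.43%). Per plant the best pairs gave 0 to 6 changes over the joined steps at which it could be compared, with a median of 2. PaPe52, PaPe63, PaPe76 and PaPe89 could be compared at only 7, 4, 8 and 4 steps and had 1 change each. Every other plant was compared at 86 to 100 steps. The highest shares were at 95 Mb (15 of 54 plants, 27.8%), 36 Mb (8 of 54, 14.8%) and 56 Mb (8 of 55, 14.5%). These 3 steps also had the lowest r2 of the joined ones, and the last of them had a second pair at r2 of 0.00375. The share of changes due to errors in calls was not tested.

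Many patterns had a match far from their place in the table. At an r2 of at least 0.5, 231 of 259 patterns (89.2%) matched another within 5 Mb, 127 (49.0%) matched one more than 5 Mb away on chromosome 1, and 93 (35.9%) matched one on another chromosome. Over all 1395 patterns of chromosomes 1 to 19 these last shares were 54.9% and 47.2%, so that chromosome 1 lay below the whole, of which it is a part, for both kinds. Single chromosomes from 2 to 19 ran from 0% to 75.6% for matches past 5 Mb and from 18.4% to 93.5% for matches to another chromosome. The number of patterns open to a match differs between chromosomes, and its part was not tested. The partner was chosen from the same plants as the best of many, and all values on partners are a description with no test. Partners are named by the chromosome label and position in the table. Not all positions lie within the chromosome lengths that the paper lists. Chromosomes 16, 17 and 19 gave 25, 17 and 12 steps between neighbouring 1 Mb segments, more than their listed lengths can hold. Positions and windows here are thus those of the table, and whether its labels fit the assembled chromosomes was not tested. Only 3 patterns matched nothing at this level. The matches to other chromosomes came from 61 of the 111 segments and reached 13 chromosomes, most often chromosome 2 (20 patterns), chromosome 13 (18) and chromosome 8 (12). Chromosomes 2, 13 and 8 themselves held 122, 27 and 71 patterns open to a match, so these counts are not on an equal footing.

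In 10 patterns every plant compared was in the same state as in a pattern of another chromosome. These, and the longer runs described after them, were picked after their values had been seen. The pattern at positions 3410300 to 3839388 (10 SNPs) matched chromosome 3 at 34095099 to 34968113 (16 SNPs) in 53 of 53 plants. The one at 42289068 to 42711154 (13 SNPs) matched chromosome 8 at 56225 to 614196 (16 SNPs) in 56 of 56. That at 85363375 to 85930468 (10 SNPs) matched chromosome 2 at 30080370 to 30700283 (20 SNPs) in 56 of 56. These 3 patterns had no neighbour of their own within 5 Mb, where the best r2 was 0.067, 0.12 and 0.069.

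The same held for a short group of 5 SNPs at 13415374 to 13417084, which matched chromosome 4 at 6114055 to 6587163 in 54 of 54 plants and whose best r2 within 5 Mb was 0.080. The other 6 patterns also had close neighbours with an r2 of at least 0.79. Among them, the pattern at 273244 to 945984 (17 SNPs) matched chromosome 18 at 10118492 to 10139476 in 55 of 55 plants. The pattern at 33250870 to 33984612 (21 SNPs), next to the break at 33 Mb, matched chromosome 2 at 67022139 to 67229825 in 52 of 52. At 96528936 to 96953995, next to the break at 96 Mb, 20 SNPs matched chromosome 4 at 1349669 to 1952891 in 51 of 51 plants, and a second pattern there matched chromosome 4 at 2050471 to 2949435 in 55 of 55.

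Matches to other chromosomes also rose and fell along neighbouring segments. The clearest case was chromosome 6 at 32 to 33 Mb, which was matched by 7 segments in a row from 19 to 26 Mb. The r2 was 0.77, 0.85 and 0.92 in the segments starting at 19, 20 and 21 Mb, 1 at 22 Mb (49 of 49 plants), and 0.92, 0.92 and 0.83 at 23, 24 and 25 Mb. This stretch covers window 5, which had the highest mean r2 within a window.

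Chromosome 7 at 1 to 2 Mb was matched by 5 segments from 3 to 8 Mb, with the highest r2 of 0.93 (53 of 54 plants) at 6 Mb and the lowest of 0.68 (50 of 55) at 4 Mb. Chromosome 13 was matched from several separate places. Its segment at 32 to 33 Mb was matched from 1 to 4 Mb with r2 of 0.86, 0.73 and 0.86 in the 3 segments. Its segment at 0 to 1 Mb was matched from 43 to 47 Mb with r2 of 0.54 to 0.85, that at 1 to 2 Mb from 48 to 52 Mb with r2 of 0.67 to 0.93, and that at 27 to 28 Mb from 86 to 90 Mb with r2 of 0.66 to 0.80. Within the last stretch other patterns matched chromosome 2 at 67 to 68 Mb, with r2 of 0.67, 0.86 and 0.80 in the segments starting at 86, 88 and 89 Mb. Some of the partner positions named lie past the ends of their chromosomes, by the chromosome lengths that the paper lists. Among them are the segments at 27 to 28 and 32 to 33 Mb of chromosome 13. The match at 10118492 to 10139476 of chromosome 18 is another.

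Distant matches within chromosome 1 had the same form. The pattern at 65015978 to 65605684 was in the same state as that at 102410112 to 102473378 in 52 of 52 plants, and r2 with the latter fell to 0.53 at 62 Mb and 0.79 at 66 Mb. The pattern at 8044702 to 8697743 matched that at 89378613 to 89716011 in 51 of 51. In the segments starting at 78 and 79 Mb, 2 patterns each were found again, in every plant compared, within 85586185 to 85849236, close to the break at 86 Mb. The lone segment between the breaks at 13 and 14 Mb had its best match within chromosome 1, with an r2 of 0.93 (54 of 55 plants), in the segment starting at 54 Mb. The segments of 0 to 1 Mb and 95 to 96 Mb matched each other with an r2 of 0.86 (52 of 54 plants).

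**Figure D5:**
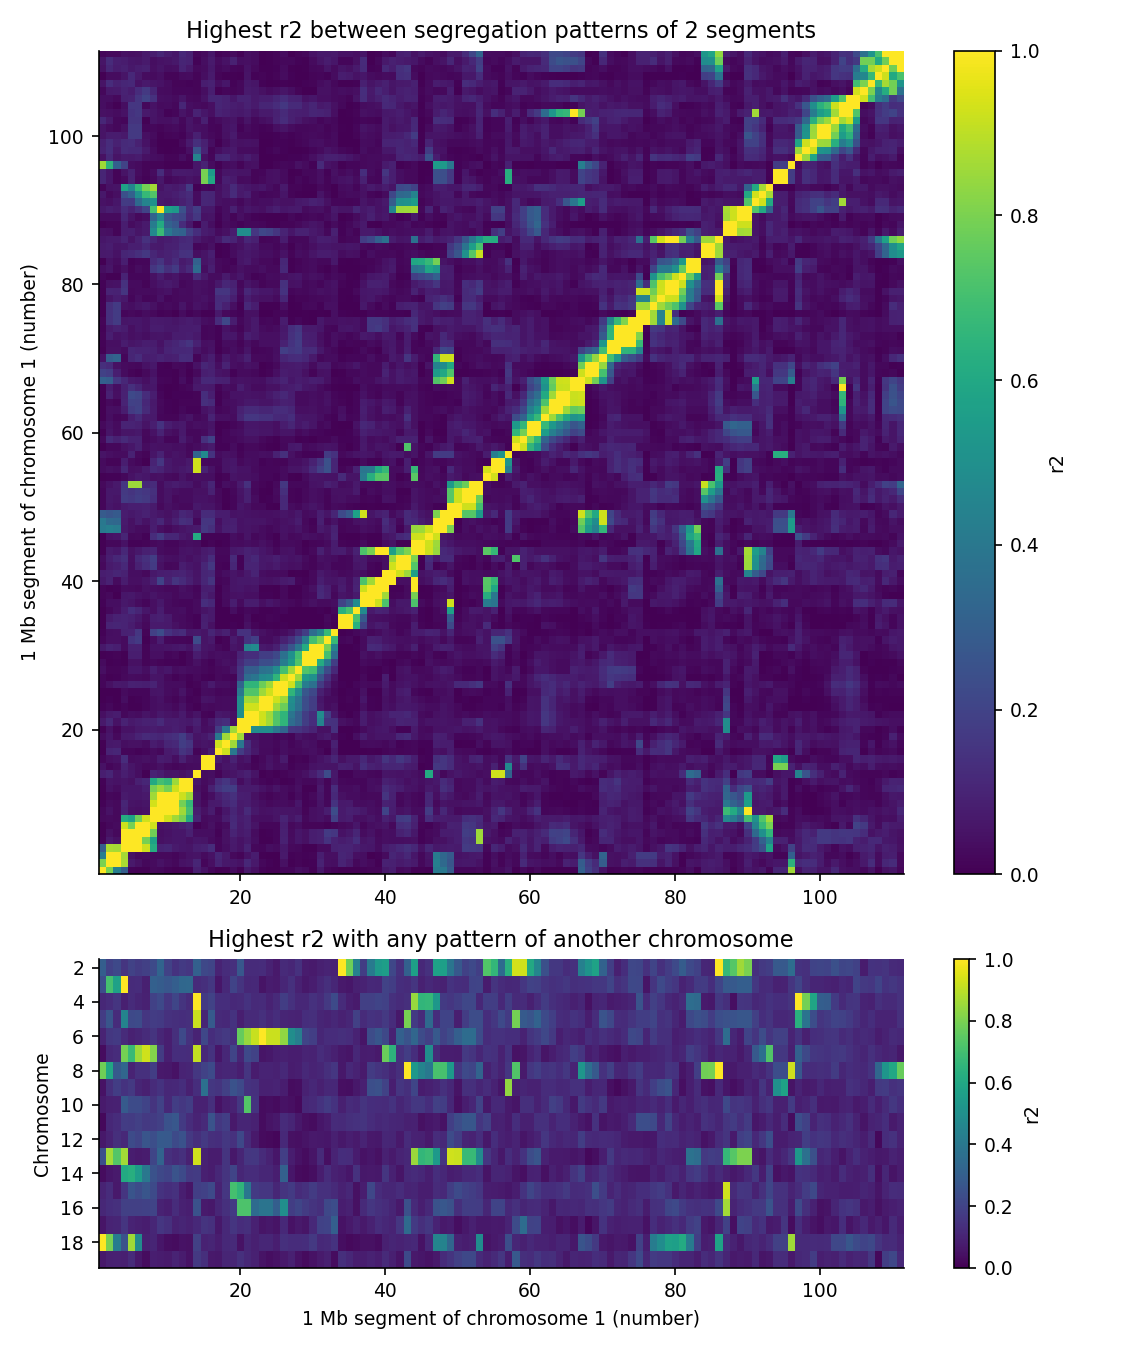
Highest r2 between the segregation patterns of any 2 of the 111 segments of 1 Mb on chromosome 1 (above), and between each segment and any pattern of chromosomes 2 to 19 (below), on a scale from 0 to 1. The diagonal runs are broken at 10 steps, and bright spots off the diagonal and in the rows of other chromosomes mark distant matches such as chromosome 6 with segments 20 to 26.

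Partners were also sought SNP by SNP, with 1 SNP per 100 kb on all chromosomes. Of 1142 chromosome 1 SNPs, 775 (67.9%, Wilson interval of 95% from 65.1% to 70.5%) had their best partner on chromosome 1, which held 15.7% of the 7279 SNPs searched. Only 370 partners (32.4%) lay within 1 Mb, and 270 (23.6%) lay on chromosome 1 but past 5 Mb. Without the 4 plants that lay apart, 42.4% lay within 1 Mb. Partners on other chromosomes numbered 367, of which 158 had an r2 of at least 0.5. Linked SNPs are not independent, so the intervals are too narrow. Where partners tied at the highest r2, the first in order of chromosome and position was taken. A tie that included chromosome 1 was thus counted there, and the part of ties in these shares was not tested.

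Of the 23 windows with at least 10 such SNPs, none had as much as 50% of its partners on 1 other chromosome, and the highest share was 14.3%. Partners on other chromosomes were most frequent in window 1 (24 of 47 SNPs, 51.1%, interval from 37.2% to 64.7%), followed by windows 4 and 8 (21 of 50 in each, 42.0%, 29.4% to 55.8%). They were least frequent in window 16 (8 of 50, 16%), window 17 (8 of 48, 16.7%) and window 10 (9 of 49, 18.4%). In window 8, 7 of the partners lay on chromosome 4.

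The pairs named here had the highest r2 in these 6 windows, with ties settled by the lowest position, and 5 of the 6 rested on few plants. In window 16, S1_75185680 (G/T) and S18_1318953 (G/T) had an r2 of 1 over 60 plants, of which 54 were heterozygous at both and the other 6 were homozygous at both, 3 of each kind. S1_80103494 (C/G) in window 17, S1_16535612 (C/T) in window 4 and S1_35072551 (C/T) in window 8 all had S2_6479999 (T/A) as partner, with 56 of 60 plants heterozygous at both. S1_45086583 (A/G) in window 10 and S2_8283734 (A/C) had 54 plants heterozygous at both. In window 1, 6 SNPs tied at an r2 of 1, and 5 of them had at least 90% heterozygous calls. The sixth, named because it has the lowest position, was of another kind: at S1_86733 (T/C) and S16_11056657 (T/A), 31 plants were TT at both and 26 were CC and AA, with no heterozygote among 57 plants.

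SNPs of the former kind were common in this search, since 184 of the 1142 (16.1%) had at least 90% heterozygous calls. Of these 184, 145 had a partner on chromosome 1 past 5 Mb, 27 on another chromosome and 5 within 1 Mb. Ties at an r2 of 1 occurred among SNPs of this kind and went to chromosome 1 first. This split therefore depends in part on the order of the search, to an extent that was not tested. With such SNPs left out, a choice made after seeing the data, 67.7% of 1142 SNPs had their best partner on chromosome 1. The share within 1 Mb was then 43.5% (497 SNPs), and that past 5 Mb 11.4% (130 SNPs). Partners on other chromosomes made up 32.3%, beside 32.1% with these SNPs included.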

How the data were processed

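The deposited values are genotype letters with no scale of measurement (unit: other), made by the authors with TASSEL and Bowtie 2 from both enzyme pairs merged, imputed by nearest neighbours and filtered at a minor allele frequency of 0.05. Reference build: not given in the sources used here. Letters were turned into dosage 0, 1 or 2, and N was left out pair by pair, with an r2 computed from 20 or more shared plants. The members, windows, tests and named items were chosen with earlier results of these data known. The windows named have the 3 highest and 3 lowest values of a measure up to the edge at position 111152489, set by the first gap over 500 kb. The SNPs named have the highest r2 to another chromosome in the windows named for their partners. Segregation patterns in 1 Mb segments were added after seeing the data: average linkage at r2 of 0.5, and a plant's state taken from its mean over the SNPs. Permutation tests used 100000 draws. The segregation patterns, the breaks and changes of state between them and their distant matches were tried on simulated crosses. A binomial test was tried on simulated 1:1 ratios. The other statistics were not tried on simulated data. The number of columns not used for lack of identity was 0. Replicate libraries could not be separated, so p-values measure the spread between plants. Sequences around the SNPs, gene annotation and traits are not analysed here. The software was Python 3.11.15 with pandas 2.3.3, scipy 1.17.1, numpy 2.4.6 and matplotlib 3.10.9.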

Additional observations from a re-analysis of the deposited data

How the results depend on the processing

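No paired analysis was possible because the plate numbers shared by the groups belong to libraries, which each plant's merged column does not keep apart, so no library could be left out either. The comparison of chromosomes within a plant does not use these numbers. Of 44 alternatives, 31 kept the result. Kept means the same sign and call for heterozygosity, and elsewhere a value inside a fixed band, wide for counts. With at least 10 SNPs in a pattern, breaks went from 10 to 14 and matches past 5 Mb from 127 to 85, both counted as kept. Some alternatives could hardly move a result. SNPs with 2 balanced classes already pass a minor allele frequency of 0.1, and at least 40 called plants left 22935 of 22940 tested SNPs. With SNPs that have N in at most 20% of columns, fewer in number, density up to the edge was 4.21 per Mb, the difference in heterozygosity was -2.24 points, 622 SNPs departed from 1:1 (56.8% of those tested), mean r2 within windows was 0.0670 and 42.1% of best partners lay on chromosome 1. Counted in 1 kb bins the density was 60.4 per Mb, and the median r2 within windows was 0.0239. Windows of 10 Mb gave 4 joined pairs of 11, and windows of 2.5 Mb 28 of 44. Among choices added after seeing the data, at least 10 SNPs in a pattern gave 61 patterns matched to another chromosome, and an r2 of 0.8 gave 33, with 45 past 5 Mb on chromosome 1. Segments of 2 Mb gave 4 breaks in 55 steps. Apart from construction (fewer SNPs, windows or patterns), the cause was not tested. Depth is unknown, so its limit could not be set.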
